A study of Mus musculus with 7 samples.

Results

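The proneural basic helix-loop-helix (bHLH) genes described here are 9 mouse genes, Neurog1, Neurog2, Neurog3, Neurod1, Neurod2, Neurod4, Neurod6, Ptf1a and Atoh7, out of 21631 protein-coding genes on the X chromosome and the autosomes. They were chosen by name. Called regions of H3K27me3, trimethylated lysine 27 of histone H3, were assigned to a gene when they overlapped its RefSeq gene body extended by 10 kb on each side by at least 1 bp. The mark had been mapped by chromatin immunoprecipitation and sequencing in interfollicular epidermal progenitors of newborn mice (postnatal day 0), sorted from back skin as EpCAM-positive, Sca1-positive cells with high α6-integrin, with 400000 cells for each immunoprecipitation. The control genotype is labelled only as Control, and the mutant as Ring1a/b 2KO, which lacks Ring1a and Ring1b (encoded by Ring1 and Rnf2). No source used here gives the alleles, any Cre driver or the number of animals per library. Each genotype had 2 H3K27me3 libraries and 1 deposited list of peaks, so no result below has a replicate error or a test between genotypes. The antibody label and the list of the 2KO libraries say H3K27me3 and their titles H3K27me1; the list was read as H3K27me3. Inputs and the Eed cKO libraries, for which there was no list, were not analysed here.

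Proneural bHLH factors bind E-box sequences as dimers with the broadly expressed E proteins and switch progenitors of the nervous system, retina and pancreas towards differentiation. Id proteins block them by taking up E proteins, and Notch signalling represses them through Hes factors. In cells that do not use them, such genes are classical targets of Polycomb. Polycomb repressive complex 2 writes H3K27me3. Complex 1, whose catalytic subunits are Ring1a and Ring1b, ubiquitinates histone H2A, and some of its forms bind H3K27me3.

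The control list held 3631 peaks (median width 4764 bp) and the 2KO list 2340 peaks (median width 5507 bp). The files give positions without height, score or depth. An uncalled position is therefore not shown to lack the mark, and a mark in some of the sorted cells cannot be told apart from a weaker mark in all of them. None of the 8 basal epidermal genes examined (Krt5, Krt14, Itga6, Itgb4, Trp63, Ly6a, Epcam and Col17a1) had a peak of either list within 10 kb. The same held for all 4 suprabasal epidermal genes examined (Krt1, Krt10, Lor and Flg). Among genes of other skin cells, control peaks met 5 of 6 Merkel cell genes, 4 of 4 hair follicle genes, 4 of 5 dermal fibroblast genes, 2 of 4 melanocyte genes, 1 of 3 endothelial genes and 1 of 3 immune genes. In the 2KO list the counts were 4, 2, 3, 1, 1 and 2 in the same order. Over all protein-coding genes 14.9% had a control peak and 11.2% a 2KO peak. Under 2KO peaks lay 46.6% of the control-called bases of the Merkel cell genes, 30.9% for hair follicle genes and 43.0% for melanocyte genes. For the dermal fibroblast genes the share was 67.1%. It was 100% for the endothelial and for the immune genes, each with 1 gene called in the control list. Over all protein-coding genes that share was 51.9%. Merkel cell genes differed among themselves, with 92.2% at Isl1, 81.8% at Atoh1, 41.9% at Sox2 and 13.8% at Krt8. Krt18 (23.8 kb) was called in the control list only. Of the hair follicle genes, Lhx2 (45.1 kb) and Sox9 (0.808 kb) were called in the control list only. The share was 98.7% at Shh and 72.4% at Lgr5. A peak or its absence is not a level of expression.

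At 7 of the 9 genes the called regions spanned the promoter, and the promoters differ in how many CpG dinucleotides they hold. Those shown are the pair with the most CpGs (Neurog1 and Neurod1), the pair with the fewest among genes whose start site lay under a peak (Neurog2 and Atoh7), and the pair whose start site lay under no peak of either list (Neurod6 and Neurod4). Each sequence is the 250 bases before the RefSeq start site, build GRCm38.p6 (the same assembly as mm10), read 5′ to 3′ on the strand of the gene, with CpG dinucleotides in capitals. For Neurog2 the listed start site (127633136) lies downstream of the start of the RefSeq gene body (127632733). Its sequence and CpG count therefore come from within that gene body.
Neurog1 (chr13:56252181-56252430, minus strand): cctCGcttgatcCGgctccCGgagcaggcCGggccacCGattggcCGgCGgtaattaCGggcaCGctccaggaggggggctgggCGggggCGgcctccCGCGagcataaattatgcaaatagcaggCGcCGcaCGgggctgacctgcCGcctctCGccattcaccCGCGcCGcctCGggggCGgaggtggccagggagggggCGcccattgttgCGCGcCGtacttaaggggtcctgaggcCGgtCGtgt
Neurod1 (chr2:79456637-79456886, minus strand): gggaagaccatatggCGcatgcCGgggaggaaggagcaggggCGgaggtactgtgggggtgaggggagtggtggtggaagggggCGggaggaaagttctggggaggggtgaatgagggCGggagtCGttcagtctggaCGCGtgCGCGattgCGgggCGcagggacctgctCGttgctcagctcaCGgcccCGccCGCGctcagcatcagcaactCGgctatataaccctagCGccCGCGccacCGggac
Neurog2 (chr3:127632886-127633135, plus strand): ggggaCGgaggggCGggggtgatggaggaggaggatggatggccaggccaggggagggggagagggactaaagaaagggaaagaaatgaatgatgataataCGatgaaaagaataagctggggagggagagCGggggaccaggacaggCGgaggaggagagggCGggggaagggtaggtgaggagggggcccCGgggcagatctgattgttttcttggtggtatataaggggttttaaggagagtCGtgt
Atoh7 (chr10:63099535-63099784, plus strand): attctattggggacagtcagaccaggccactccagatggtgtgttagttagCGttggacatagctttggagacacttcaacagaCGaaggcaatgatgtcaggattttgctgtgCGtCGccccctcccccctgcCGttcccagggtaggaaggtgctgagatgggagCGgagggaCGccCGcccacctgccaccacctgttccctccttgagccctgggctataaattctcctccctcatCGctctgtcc
Neurod6 (chr6:55681264-55681513, minus strand): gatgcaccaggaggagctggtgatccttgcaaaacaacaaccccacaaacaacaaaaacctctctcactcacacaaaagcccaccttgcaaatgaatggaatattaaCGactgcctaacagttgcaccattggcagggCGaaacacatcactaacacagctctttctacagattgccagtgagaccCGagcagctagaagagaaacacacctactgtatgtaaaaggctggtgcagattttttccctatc
Neurod4 (chr10:130280255-130280504, minus strand): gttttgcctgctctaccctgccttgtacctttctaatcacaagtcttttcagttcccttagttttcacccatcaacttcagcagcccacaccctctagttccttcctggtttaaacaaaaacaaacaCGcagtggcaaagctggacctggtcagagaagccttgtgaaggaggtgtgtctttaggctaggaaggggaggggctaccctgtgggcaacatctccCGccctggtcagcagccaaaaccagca

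In the Neurog1 sequence there were 29 CpGs, more than in 91.8% of the 17274 protein-coding promoters with a RefSeq start, and in that of Neurod1 there were 22. Ptf1a had 19, Neurog3 18, Neurod2 11, Atoh7 9 and Neurog2 8. The lowest counts of the group were those of Neurod6, with 3, and Neurod4, with 2. The median over all promoters was 10. GC content ran in a similar but not identical order, from 71.2% at Neurog1 and Neurog3 down to 51.2% at Neurod4 and 46.0% at Neurod6. Thus the 7 genes with a start site under a control peak had between 8 and 29 CpGs and the other two had fewer. Across all protein-coding promoters the share of start sites under a control peak was lowest at low CpG counts: with 0 to 2 CpGs, 50 of 3989 start sites lay under a control peak (1.25%, 95% Wilson interval 0.952 to 1.65), with 3 to 5 CpGs 5.97% (5.09 to 6.98), and with 6 to 10 CpGs 10.7% (9.56 to 12.0). Above that the share did not climb further: it was 9.47% with 11 to 20 CpGs and 10.8% with 21 or more. In the 2KO list the shares were 1.03, 4.57, 7.63, 5.32 and 4.69% over the same classes, so they fell again above 10 CpGs. These intervals cover counting error only, and genes that share a peak are not independent.

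**Figure D1:**
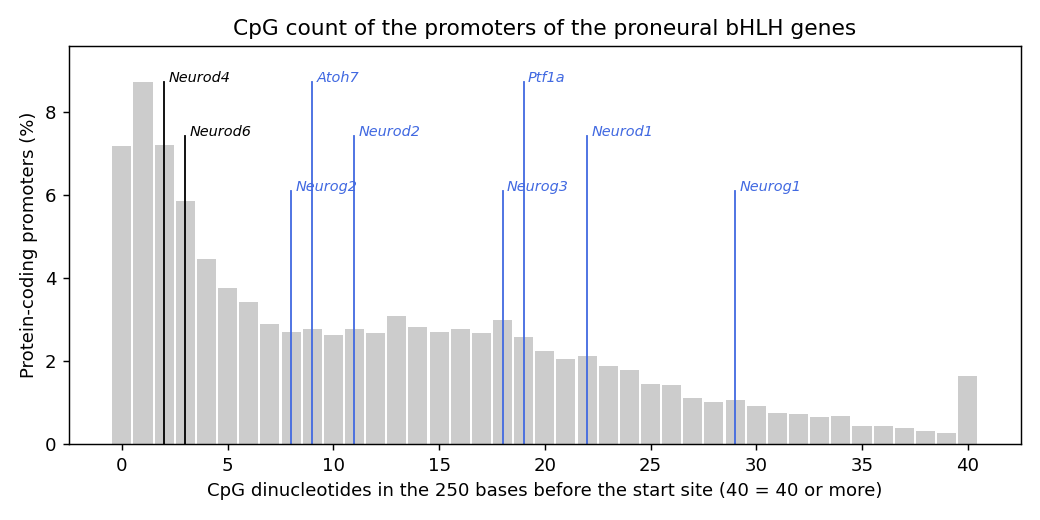
Grey bars give the percentage of 17274 protein-coding promoters (y axis) with each number of CpG dinucleotides in the 250 bases before the start site (x axis, 40 standing for 40 or more). Lines mark the 9 genes, blue where the start site lay under a control peak and black where it did not: Neurod4 and Neurod6 stand at 2 and 3 CpGs, and the other genes between 8 and 29.

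E-box letters were also counted. The motif CANNTG, which reads the same on both strands, occurred at least once in the 250 bases of 5 of the 9 genes (55.6%), beside 62.7% of all promoters. Neurod2 and Atoh7 held 3 matches each, Neurod6 2, and Neurog3 and Neurod1 1 each. A match of letters is not a binding site.

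To examine which of the proneural genes carried the mark in epidermal progenitors, the control list was read first. It had a peak at 7 of the 9 genes, namely Neurog1, Neurog2, Neurog3, Neurod1, Neurod2, Ptf1a and Atoh7, and none at Neurod4 and Neurod6. Over all protein-coding genes the same rule was met by 14.9%, and over the 6757 genes of body length within the range of the 9 (1496 to 12103 bp) by 14.7%. At each of the 7 genes the control peak held the whole gene body and the start site. Of 17274 protein-coding genes with a RefSeq start, 7.55% had that start under a control peak. Of all protein-coding genes, 2.5% had at least 50% of the gene body under control peaks. The bodies of the 7 genes measured 1496 to 4231 bp, and a share of whole bodies covered among genes of that length was not computed. In the 2KO list 8 of the 9 genes had a peak, the same 7 plus Neurod6, beside 11.2% of all protein-coding genes. All 7 genes with a control peak thus had a 2KO peak too, and none had a control peak alone; over all protein-coding genes 8.90% had peaks in both lists and 5.98% a control peak alone. Of all 3219 protein-coding genes with a control peak, 59.8% also had a 2KO peak. Among the 1591 genes with a called control length inside the range of these 7, the share was 71.3%. The 7 genes lie on 7 separate peaks in each list.

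**Figure D2:**
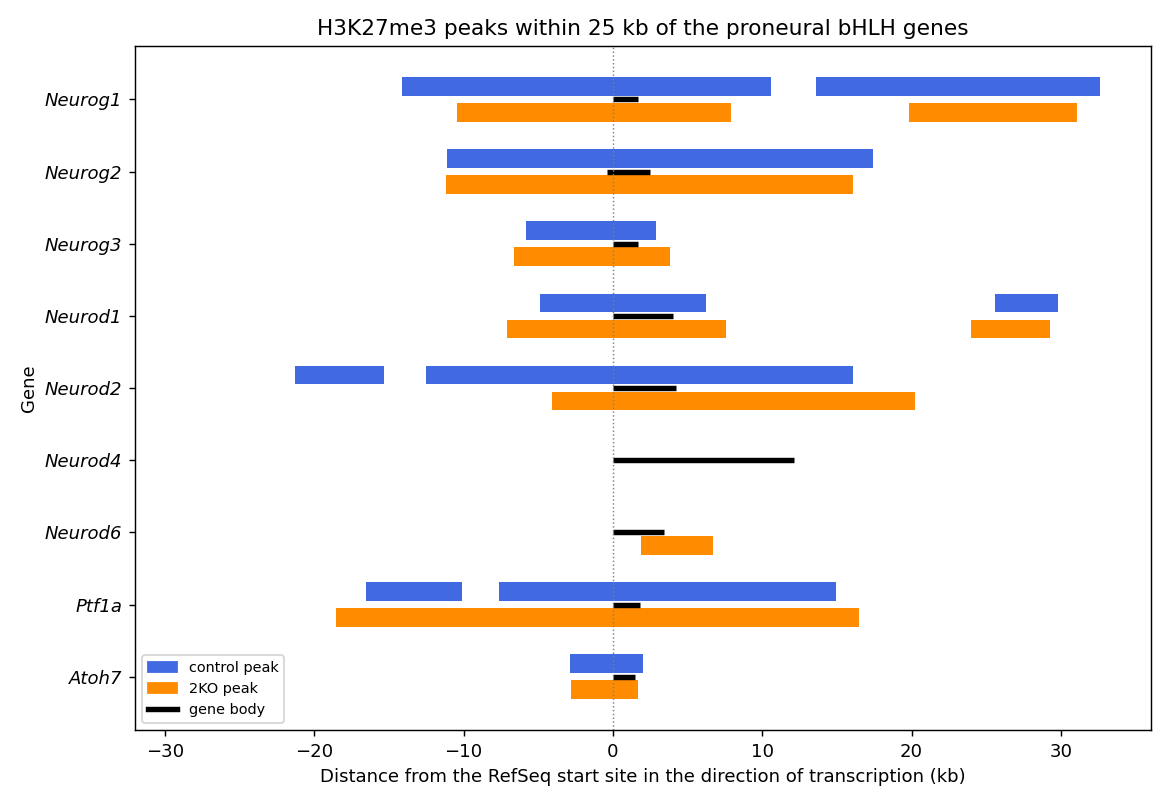
Peaks of the control (blue) and 2KO (orange) lists within 25 kb of each gene (y axis), drawn by distance in kb from the RefSeq start site in the direction of transcription (x axis), with the gene body in black. At 7 genes a peak of each list spans the start site, Neurod4 has no peak, and Neurod6 has a 2KO peak alone, downstream of its start site.

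The neurogenins are determination factors that act at the head of neuronal or endocrine programmes. Neurog2 (chromosome 3, 127632733 to 127635636), which drives cortical and sensory neuron formation, lay under the broadest neurogenin domain. Its control peak of 28.5 kb (127622025 to 127650524) and its 2KO peak of 27.3 kb (127621958 to 127649243) began 67 bp apart on the upstream side, and the downstream edge of the 2KO peak stood 1.28 kb nearer to the gene. The whole extended gene body of 22.9 kb was called in both lists. The lncRNA gene Gm40147, upstream of Neurog2, lay wholly under both peaks.

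Neurog1 (chromosome 13, 56250478 to 56252180), the determination factor of cranial sensory and other neurons, had a control peak of 24.7 kb (56241571 to 56266294) and a 2KO peak of 18.3 kb (56244301 to 56262624). The 2KO peak lay wholly inside the control peak and was shorter by 3.67 kb on the upstream side and by 2.73 kb on the downstream side. A second control domain of 19.1 kb (56219554 to 56238612), over most of the lncRNA gene 4930550C17Rik, was separated from the first by 2958 bp. In the 2KO list its counterpart measured 11.3 kb (56221102 to 56232355), and the gap to the peak at Neurog1 was 11945 bp. Both the gene domain and this neighbouring domain were therefore narrower in the 2KO list, and 59.0% of the second control domain and 74.1% of the first lay under 2KO peaks.

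Neurog3 (chromosome 10, 62133090 to 62134763), which commits pancreatic progenitors to the endocrine lineage, carried the smallest neurogenin domain. Its peak measured 8.72 kb in the control list (62127259 to 62135982) and 10.5 kb in the 2KO list (62126472 to 62136937). Here the 2KO peak reached further at both edges, by 0.787 kb upstream and 0.955 kb downstream. All of the control peak was covered by the 2KO peak. Among the 3 neurogenins the called length in the extended gene body thus went from 20.6 to 17.9 kb at Neurog1, stayed at 22.9 kb at Neurog2 and went from 8.72 to 10.5 kb at Neurog3.

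The NeuroD genes encode differentiation factors that act after the neurogenins. They included both genes without a control peak. Neurod1 (chromosome 2, 79452637 to 79456636), a factor of neuronal and pancreatic endocrine differentiation, had a control peak of 11.1 kb (79450434 to 79461517) inside a 2KO peak of 14.7 kb (79449085 to 79463757). The 2KO peak extended 2.24 kb further upstream and 1.35 kb further downstream. A smaller peak beyond the 3′ end, reaching into the neighbouring gene Cerkl, was also called in both lists, over 4.22 kb in the control list and 5.29 kb in the other, with 3650 bp shared.

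Neurod2 (chromosome 11, 98325415 to 98329645), a factor of cortical and hippocampal neuron differentiation, had the widest control peak of the group, 28.6 kb (98313582 to 98342146), which ranked 81st by width among the control peaks. The 2KO peak measured 24.3 kb (98309407 to 98333708) and was both displaced and shorter. Its upstream edge stood 8.44 kb nearer to the start site, and its downstream edge 4.17 kb further away. On the upstream side the control peak held the whole of Gm33099, a predicted protein-coding gene (98334454 to 98340898), and no base of that gene lay under a 2KO peak. Nor did the 2KO list have a counterpart of the next control peak upstream (98344960 to 98350907, 5.95 kb), which began 2813 bp beyond the first. Called length in the extended gene body went from 24.2 to 18.3 kb, so 75.5% of the control-called bases were under the 2KO peak, the lowest share of the 7 genes.

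Neurod6 (chromosome 6, 55677818 to 55681263), a factor of cortical pyramidal neurons, was called in the 2KO list only. Its 2KO peak of 4.82 kb (55674572 to 55679387) was narrower than the median of its list and covered 45.6% of the gene body at its 3′ side. The edge nearest to the start site lay 1876 bp downstream of it. No control peak lay nearer than 224 kb to the gene. Over all protein-coding genes 2.27% had a 2KO peak and no control peak within 10 kb. Neurod4 (chromosome 10, 130268152 to 130280254), which acts with other bHLH factors in retinal and brain neurons, had no peak in either list, and the nearest one was 1332 kb away in each. Of all protein-coding genes 82.8% had no peak in either list.

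Outside these families, Ptf1a and Atoh7 had the widest and the narrowest 2KO peak that spanned a start site; in the control list Neurod2, Neurog2 and Neurog1 had wider peaks than Ptf1a. Ptf1a (chromosome 2, 19445663 to 19447501) specifies the exocrine pancreas and inhibitory neurons of the cerebellum and spinal cord. Its 2KO peak of 35.1 kb (19427091 to 19462172) was the widest of the group and ranked 12th by width among 2340. In the control list the same stretch was called as a peak of 22.6 kb at the gene (19438039 to 19460621) and one of 6.41 kb upstream (19429140 to 19435553). The gap of 2485 bp between them lay wholly under the 2KO peak, as did both control peaks. The upstream control peak ended 110 bp outside the extended gene body and is the peak nearest to that limit. The next nearest was the second control peak of Neurog1, 1866 bp outside it. Ptf1aos, the lncRNA gene that overlaps Ptf1a, and 1810010K12Rik downstream of it were covered in full in both lists.

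Atoh7 (chromosome 10, 63099785 to 63101280), the factor of retinal ganglion cell formation, had the narrowest peaks that spanned a start site, one of 4.89 kb in the control list (63096944 to 63101829) and one of 4.50 kb in the 2KO list (63096946 to 63101448). The upstream edges differed by 2 bp and the downstream edges by 381 bp. Its control peak was wider than 51.8% of control peaks and its 2KO peak wider than 36.7% of 2KO peaks, while the start-site peaks of the other 6 genes were wider than at least 80.5% of their lists.

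**Figure D3:**
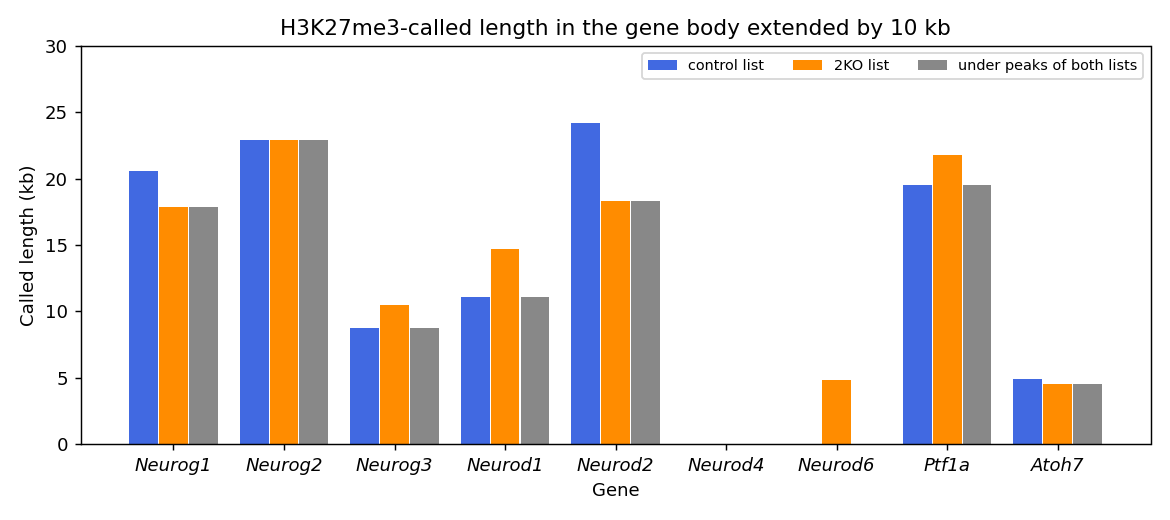
Bars give, for each gene (x axis), the length in kb (y axis) of the gene body extended by 10 kb that was called in the control list (blue), in the 2KO list (orange) and in both (grey). Called length went from 24.2 to 18.3 kb at Neurod2 and from 20.6 to 17.9 kb at Neurog1, and from 11.1 to 14.7 kb at Neurod1, whereas Neurog2 was called in full in both lists.

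To compare the extent of the mark between genotypes, called bases in the extended gene bodies were summed. The 9 genes had 112 kb of control-called and 115 kb of 2KO-called sequence, a ratio of 2KO to control of 1.03. They shared 103 kb, so 91.9% of the control-called bases were also called in 2KO cells. Over all protein-coding genes the corresponding ratio was 0.724 and the share 51.9%. In genes of similar body length these values were 0.765 and 60.2%. Among the 1925 genes with a peak in both lists the median share of control bases under 2KO peaks was 95.0%, and among the 7 proneural genes it was 100%, with a range of 75.5 to 100%, so within genes called in both lists the 7 lay close to the rest. The ratio of called length was likewise near that of other genes called in both lists. Its median was 1.00 for the 7 genes and 1.05 (quartiles 0.769 and 1.39) for the 1925. Called length was larger in the 2KO list at Neurog3, Neurod1 and Ptf1a, with ratios of 1.20, 1.32 and 1.12, equal at Neurog2, and smaller at Neurog1, Neurod2 and Atoh7, with ratios of 0.868, 0.755 and 0.922. These lengths stop 10 kb beyond the gene body, a stretch that was called in full at Neurog2 in both lists. Ratios of whole peak width, 2KO to control, were 1.20 at Neurog3, 1.32 at Neurod1 and 1.55 at Ptf1a. They were 0.957 at Neurog2, 0.741 at Neurog1, 0.851 at Neurod2 and 0.922 at Atoh7. No shared direction of change was seen among the 7 genes in called length or in peak width. The summed ratio also fell below 1 with other settings, to 0.958 when gene bodies were extended by 25 kb and to 0.948 when only the wider 50% of each list was used.

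Peaks of the 7 genes spanned the start sites, and the differences lay at the outer edges and in the gap upstream of Ptf1a. At every position examined from 2 kb upstream to 1.5 kb downstream of the start site, the same 7 of 9 genes (77.8%) were under a peak in each list. At 2 kb downstream the 2KO list still held 7 genes, but with Neurod6 in place of Atoh7. At 10 kb upstream 3 genes were under a control peak (Neurog1, Neurog2 and Neurod2) and 3 under a 2KO peak (Neurog1, Neurog2 and Ptf1a). At 11 kb upstream the counts in the control and 2KO lists were 4 and 2. They were 5 and 7 at 3 kb downstream, and 4 and 3 at 10 kb downstream. Over all 17274 protein-coding genes with a RefSeq start, 7.55% were under a control peak and 4.42% under a 2KO peak at the start site itself, and 1.62% and 1.55% at 10 kb upstream.

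**Figure D4:**
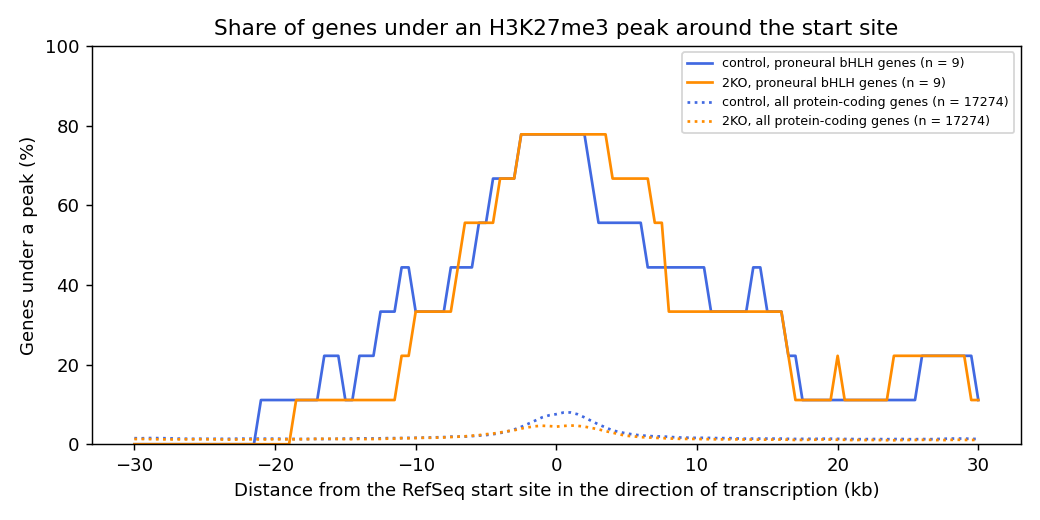
The percentage of genes under a peak (y axis) is plotted against distance in kb from the start site in the direction of transcription (x axis, steps of 0.5 kb) for the 9 proneural genes (solid) and all 17274 protein-coding genes with a RefSeq start (dotted), in the control (blue) and 2KO (orange) lists. At the start site both solid lines are at 77.8% and the dotted lines at 7.55% and 4.42%; at 1 kb downstream the dotted lines are at 7.98% and 4.71%.

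Of the 18 nearest protein-coding genes on either side of the 9, Gm33099 next to Neurod2 was the only one met by the same peak as a proneural gene, and in the control list only. Called bases of any peak lay in the body of 5 of the 18 in the control list (27.8%) and of 3 in the 2KO list (16.7%). Over all protein-coding genes these shares were 11.2% and 7.17%.

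Genes that act with the proneural factors were counted by the same rule. Over all protein-coding genes 14.9% had a control peak, 11.2% a 2KO peak, 8.90% both and 82.8% neither. None of the 7 dimer partners and inhibitors (the E protein genes Tcf3, Tcf4 and Tcf12, and Id1, Id2, Id3 and Id4) had a peak in either list. Of 12 genes of Notch ligands and of the Hes and Hey families, 7 had a control peak, 6 a 2KO peak and 6 both. Hes3, Hes5, Hey2 and Dll4 were the genes in both lists with the most called length. Hes5, a Notch effector that represses proneural genes, went from 12.0 to 11.1 kb, whereas the ligand gene Dll4 went from 11.8 to 5.41 kb. Hey1 had a control peak only (2.21 kb), and Hes1, Hes6, Dll1, Jag1 and Jag2 had none.

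Genes known to act downstream of the proneural factors in neurons, retina or pancreas were counted next. All 21 had a control peak and 20 a 2KO peak, beside 14.9% and 11.2% of all protein-coding genes. The list was chosen with earlier results of these data known. Of the control-called bases of these genes 72.0% were under 2KO peaks, with a ratio of called length of 0.795. Over all protein-coding genes these values were 51.9% and 0.724. Ebf3, a factor of neuronal differentiation, went from 56.0 to 16.8 kb, and Pax2 from 57.0 to 40.7 kb. Isl1, a factor of motor and sensory neurons and of Merkel cells, had 30.6 and 28.2 kb, and Ebf1 28.3 and 31.5 kb. Dcx, which encodes a microtubule protein of migrating neurons, had a control peak only (1.88 kb).

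The bHLH genes of other lineages were counted last. Over all protein-coding genes 14.9% had a control peak and 8.90% peaks in both lists. The share of control-called bases under 2KO peaks was 51.9% there, with a ratio of called length of 0.724. All 10 other neuronal bHLH genes had a peak in both lists, with 89.1% of control-called bases under 2KO peaks and a ratio of called length of 0.979. The oligodendrocyte and motor neuron factor gene Olig2 was called over 23.1 kb in both lists, Olig3 over 20.1 and 17.4 kb and Olig1 over 16.0 and 9.93 kb. Of 18 myogenic and mesodermal bHLH genes, 12 had a control peak and 10 of these a 2KO peak, with 78.4% of bases kept. Hand2, a factor of heart and limb, was called over 23.5 kb in both lists, Tal1 over 20.1 and 16.0 kb, Twist1 over 19.4 and 16.5 kb and Tcf21 over 16.4 and 16.7 kb. Tal2 and Lyl1 had narrow control peaks only (2.52 and 1.73 kb), and Myog, Myf5, Myf6 and Msgn1 were among the 6 with none. Differences between these lists were not tested, since genes are not replicates of a genotype.

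**Figure D5:**
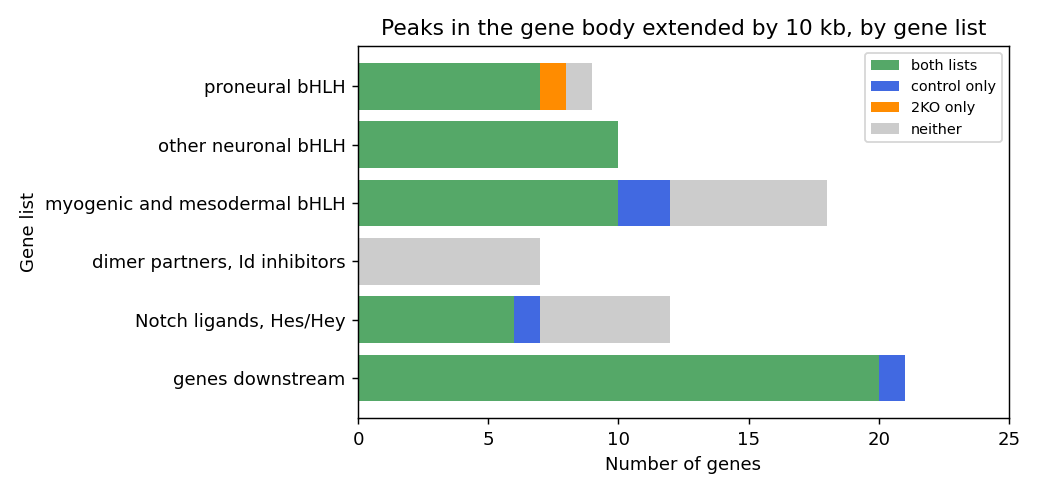
Stacked bars give the number of genes (x axis) of each list (y axis) with a peak within 10 kb in both lists (green), in the control list only (blue), in the 2KO list only (orange) or in neither (grey). The proneural row has 7, 0, 1 and 1 genes in these classes, and the dimer partner row has all 7 in the last.

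In called length over both lists, the median of the 9 genes was 11.1 kb for the control list and 14.7 kb for the 2KO list. Both medians are the values of Neurod1, so the pair stands for that gene and not for a rise over the group, whose summed ratio was 1.03. Among the 5 protein-coding genes nearest to this pair were Shank2 (11.3 and 14.5 kb), which encodes a synaptic scaffold, Cfap65 (11.4 and 14.7 kb), Kcnk12 (11.5 and 14.6 kb), a potassium channel gene, and Slc30a3 (11.5 and 14.3 kb), a zinc transporter gene of synaptic vesicles. Nearness was measured as the Euclidean distance in log2(kb + 1) over these 2 values only, which many genes can match.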

How the data were processed

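H3K27me3 peaks of control and Ring1a/b 2KO epidermal progenitors were taken from 1 list per genotype. The tools named are Bowtie2 2.3.3.1 and SAMtools 1.9, with build mm10, per the submitters' processing notes. Deposited were peak positions only (chromosome, start and end, per the file headers). How peaks were called, at which threshold, against which input and whether on pooled libraries is not given in the sources used here. Any threshold or depth that differed between genotypes would change which positions are called. Depth is unknown, so no floor of detection is given.

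Start positions were taken as 0-based and printed 1-based. Gene bodies and start sites came from RefSeq tables of GRCm38.p6, and the 5′-most listed start per gene was used. For Neurog2 that start lies within the gene body. All 9 genes were matched in both. The tables give no exons or UTRs, and protein sequences were not used here. Overlaps, called bases and CpG counts came from Python 3.11.15, numpy 2.4.6, pandas 2.3.3 and scipy 1.17.1, with figures in matplotlib 3.10.9; the overlap code was checked on simulated peaks. The genes, context lists and comparisons were chosen with earlier results of these data known. Named were all 9 genes, protein-coding genes under their peaks, every dimer partner or inhibitor, up to 4 genes per class of the other context lists by called length, and the 5 genes nearest in called length; 2 genes that this rule would name are not reported here. Members of the Notch list with no peak, lncRNA genes under or beside the peaks and flanking genes were named in addition, after their values were seen. Alternatives were windows of 0, 1 and 25 kb, the wider 50% of each list, equal numbers of peaks, merging within 3 kb and 50% of the gene body under peaks.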

Additional observations from a re-analysis of the deposited data

How the results depend on the processing

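No paired analysis was possible because a single list stands for both libraries of a genotype, whose labels share replicate numbers, and no library could be left out. The counts of 7 genes with a control peak and 7 with peaks in both lists stayed at 7 with gene bodies extended by 0, 1 or 25 kb, with equal numbers of the widest peaks, with merging within 3 kb, with 50% of the gene body required, and when the start site itself had to lie under a peak, an alternative chosen after seeing the data. With the wider 50% of each list, 6 genes had a 2KO peak and 6 had both, since the 2KO peaks of Atoh7 and Neurod6 are narrower than the median of their list. The count of 8 genes with a 2KO peak became 7 with 50% of the gene body required and at start sites. The share of control-called bases under 2KO peaks (91.9%) was 100% with 0 kb, 98.8% with 1 kb, 81.8% with 25 kb, 87.9% with the wider 50% and 91.2% after merging. The ratio of called bases (1.03) was 1.09, 1.07, 0.958, 0.948 and 1.00 under the same settings. A window of 25 kb adds outer edges and neighbouring domains. With the wider 50%, the 2KO lengths of Atoh7 (4.5 kb) and Neurod6 (4.82 kb) went to 0 and the other lengths stayed the same. Merging raised control lengths only, from 20.6 to 21.7 kb at Neurog1 and from 19.5 to 21.8 kb at Ptf1a. Other causes were not tested. With equal numbers both values were unchanged.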
